A study of Sus scrofa with 28 samples.

Results

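Recurrent intergenic distal regions are stretches with ATAC-seq peaks of liver, whose midpoints lie away from every annotated gene and which were listed repeatedly. Peaks of all 28 libraries that overlapped by at least 1 bp were chained into 29392 regions. A region was kept when at least 3 libraries listed it, its midpoint lay outside every RefSeq gene of the pig build Sscrofa11.1, and that midpoint was more than 1000 bp from every gene end. Intergenic regions in 4 stretches with dense peaks were left out, namely chromosome 9 from 63.2 to 63.5 Mb, chromosome 5 from 39.8 to 40.2 Mb, chromosome 6 from 38.7 to 38.9 Mb and chromosome 8 below 20 kb, which held 90 regions. This left 1209 regions of the 8592 that at least 3 libraries listed. Only the midpoint was tested, and 6 of the 1209 (0.496%) overlapped a gene with part of their span. The other recurrent regions were 2258 intragenic distal regions (inside a gene, over 1000 bp from any gene end) and 5035 gene-end regions (within 1000 bp of a gene end).

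ATAC-seq uses a transposase that inserts sequencing adapters into accessible DNA. Distal accessible DNA often holds enhancers, which bind transcription factors and can act on genes over a long distance. In hepatocytes, enhancers bound by factors such as FOXA1 and ONECUT1 are known to control genes of bile acid, lipid and plasma protein synthesis. An insulator, a repeat or an unannotated promoter can also be accessible, and the position of a peak does not tell these apart.

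The libraries came from liver of female Zlotnicka White pigs, a native Polish breed, at day 180, slaughtered at about 100 kg after the same feeding and housing. They fall into 4 groups of 7, high fat 200, low fat 200, high fat 600 and low fat 600. The labels state neither what 200 and 600 mean nor in which tissue fat content was scored, and they place the fat groups under a tag for shear force. Tissue pieces were digested with Accutase, strained and slowly frozen before library preparation with a TruePrep kit, so no cell type was sorted. The labels do not name the animals, and all tests below measure the spread between libraries, part of which may be technical. The lane tag in the library names changes together with the 200 or 600 label, so label and lane cannot be told apart.

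The libraries listed very different numbers of peaks, and this touches every result. A group of 13 libraries listed 39 to 635 peaks, and the other 15 listed 1137 to 17652. The high fat 200 libraries listed 205 to 17652 peaks (median 1610) and the low fat 200 libraries 196 to 8221 (median 2467). The high fat 600 libraries listed 39 to 6453 (median 190) and the low fat 600 libraries 101 to 3775 (median 526). The groups overlapped over most of their ranges. Peaks are listed per library, read counts were not used here, and the sequencing depth behind a peak is unknown. A library that does not list a region is therefore not shown to lack open chromatin there.

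Most of the 1209 regions were near the lower limit of recurrence. The limit itself admitted 363 regions (30.0%) listed in exactly 3 libraries, and 756 intergenic distal regions in 2 libraries stood just outside it. Peaks of regions in 3 libraries had a median width of 477 bp and a median strength of 4.15, and those in 2 libraries 496 bp and 4.06. Strength here is the deposited −log10 p of a peak. Of the 1209, 131 (10.8%) were listed in at least 10 libraries, 33 in at least 14, 13 in at least 20 and 4 in all 28. The median was 5 libraries, against 5 for intragenic distal and 7 for gene-end regions, of which 26.1% reached 10 libraries. The regions were chosen by these recurrence counts and by position, so the counts are a description with no test.

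At the distance limit, the regions just inside were 1 near AZIN2 at 1002 bp and 1 near PAPD7 at 1024 bp. Outside it stood 1 near FAM174B at 997 bp. The AZIN2 region was listed in 3 libraries and the PAPD7 region in 13, while the FAM174B region was listed in 12.

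The regions thinned out with distance from genes. They numbered 1.19 per Mb over 1012 Mb of eligible intergenic sequence, against 1.76 per Mb for intragenic distal regions and 51.1 per Mb for gene-end regions. Between 1001 and 5000 bp from a gene end there were 287 regions, or 2.43 per Mb. The density was 1.60 per Mb from 5001 to 20000 bp (373 regions), 1.15 from 20001 to 100000 bp (426 regions) and 0.426 farther away (123 regions). Intragenic distal regions showed the same order of densities, from 3.89 per Mb in the nearest band to 0.780 in the farthest. The median distance of the 1209 regions to the nearest gene end was 16727 bp, with quartiles of 5480 and 44752 bp. Chromosome X held the fewest per Mb (0.401) and chromosome 3 the most (1.66).

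**Figure D1:**
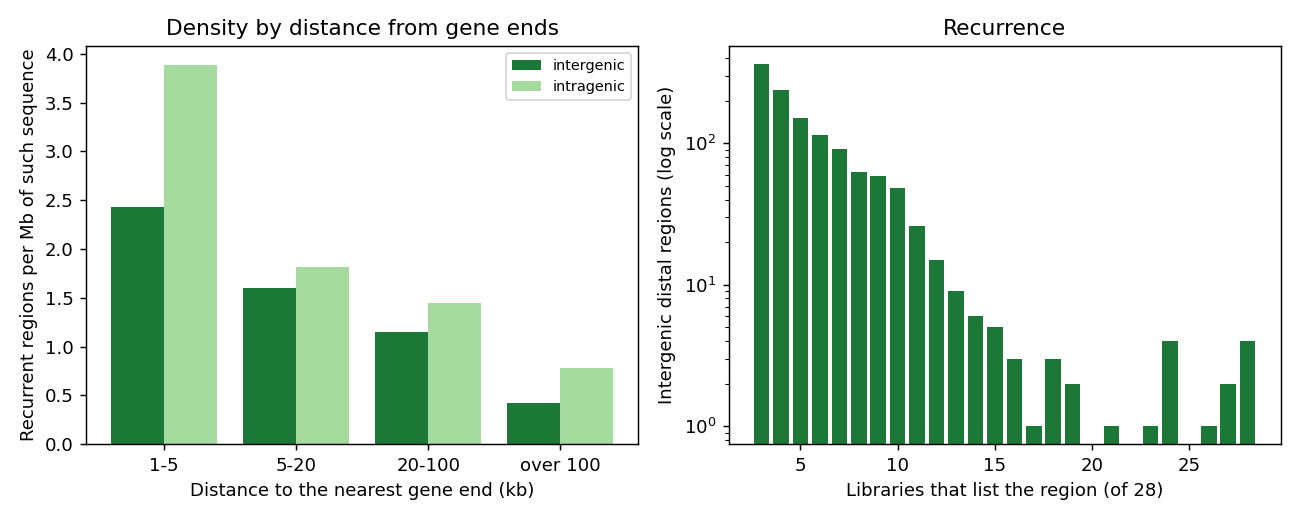
Left, recurrent regions per Mb of eligible sequence (vertical axis) in 4 bands of distance to the nearest gene end in kb, for intergenic (dark) and intragenic distal regions (light); the intergenic bars fall from 2.43 to 0.426 per Mb. Right, the number of intergenic distal regions on a log axis by the number of libraries that list them, from 363 regions in 3 libraries to 4 regions in 28.

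Recurrence and strength changed little with distance. The median number of libraries was 4 in the nearest band and 5 in each of the others, and the median strength was 4.29 in the nearest and 4.37 in the farthest. The farthest region, 766712 bp from EPHA6 (an ephrin receptor), was listed in 4 libraries with a median strength of 4.91. Regions also lay near each other, since 208 (17.2%) had another of the 1209 within 10000 bp.

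The nearest gene was protein-coding for 796 regions (65.8%), a long non-coding RNA for 314 (25.97%), a pseudogene for 82, a microRNA for 12, a tRNA for 3 and a transcribed pseudogene for 2. Long non-coding RNAs made up 19.2% of the annotated genes. The nearest protein-coding genes were 954 in number, and 404 of them (42.3%) also had a recurrent gene-end region. Of all 19484 protein-coding genes 28.8% had one, and of the genes nearest to an intragenic distal region 35.9%. A nearest gene is a matter of position, and whether a region acts on it was not tested.

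Regions listed in every library were few and strong. The highest median strength of a region was 706 among the 1209, 17.1 among intragenic distal and 6.64 among gene-end regions. Whether values of this size reflect open chromatin was not tested. At chr4:53952623-53954548, 626970 bp from the nearest gene end, strength ranged from 138.7 to 644.5 over the 14 libraries of the 200 set (median 336) and from 768 to 7880.9 over the 14 of the 600 set (median 2668). The 2 sets did not overlap there, and the 600 set was higher. The reverse order was found at chr14:51705341-51707606, with 5.34 to 8.38 in the 200 set and 3.52 to 5.24 in the 600 set. It was also found at chr7:24587643-24594609 (6.11 to 8.84 and 3.27 to 5.57). How many regions separated the sets in either direction was not counted. The region at chr9:4699774-4702440, 4097 bp from LOC100737110 and 99576 bp from the beta globin gene HBB, had strengths of 44.9 to 551 in the 200 set and 123 to 3284 in the 600 set. The region at X:22066775-22069793, 14633 bp from LOC100737023, had 26.9 to 355 and 65.4 to 1607. In these last 2 regions the sets overlapped.

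The fourth region listed everywhere was of another order. It lay at chr15:126761542-126763024, 50528 bp from DOCK10, which activates small GTPases. Its strength ranged from 17.4 to 72.6 (median 35.4) in the 200 set and from 14.5 to 92.3 (median 38.1) in the 600 set, which overlapped. High fat 200 libraries held 17.4 to 55.7 and low fat 200 libraries 27.9 to 72.6, and in the 600 set the ranges were 14.5 to 85.4 and 20.4 to 92.3. The fat groups overlapped under either label.

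Below these 4, the next most recurrent regions were weaker, though those given a strength here still lay above the upper quartile of the 1209 regions (4.64). A region at chr10:39874997-39876218, 1591 bp from LOC102161970, was listed in 27 libraries with a median strength of 7.28. One at chr14:51705341-51707606, 49105 bp from DGCR6L, was also in 27, with 5.34. A run of 5 regions between chr7:24582837 and 24606490 was listed in 26, 24, 24, 23 and 17 libraries. It lay 19408 to 39534 bp from LOC106504370, and the nearest genes with a symbol were C7H6orf10 and BTNL2, a butyrophilin-like gene known from immune regulation. Another run, near SLC25A46 (a mitochondrial outer membrane protein) on chromosome 2, held a region at chr2:115568256-115569051 listed in 21 libraries, and 6 more within 216241 bp of sequence. The region near ROPN1L at chr16:7937-10121, close to the start of the chromosome, was listed in 19 libraries with a median strength of 17.4.

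The regions of libraries with few peaks were a small subset. Of the 1209, 1086 (89.8%) were listed in no library with under 1000 peaks, and 64 (5.29%) were listed in at least 3 such libraries. Among intragenic distal regions these shares were 92.9% and 1.73%, and among gene-end regions 84.5% and 2.76%. Libraries with under 1000 peaks listed 13 to 68 of the 1209, and the others 48 to 1043. The 64 had a median of 12 libraries and a median strength of 5.00, against 4 libraries and 4.32 for the 1086. The library counts follow in part from the split, since at most 15 libraries could list any of the 1086. Their median distance from a gene end was 26252.5 bp, against 16058 bp. The high fat 200 replicate 1, the library with most peaks, alone listed 1043 (86.3%).

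**Figure D2:**
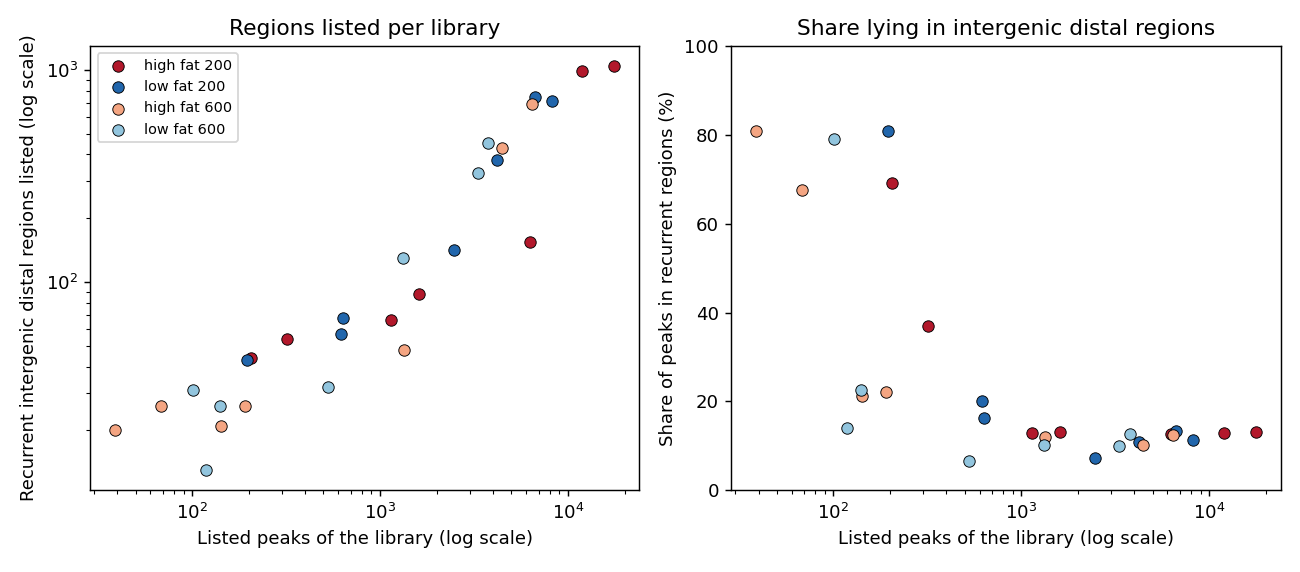
Each point is a library, coloured by its group, with its number of listed peaks on a log horizontal axis. Left, recurrent intergenic distal regions listed (log axis), from 13 to 1043; right, the percent of the library's peaks in recurrent regions that lie in intergenic distal ones, which spans 6.67% to 80.8% in libraries under 1000 peaks and 7.18% to 13.3% in the others.

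The gene of a hepatocyte microRNA lay within the span of one of the most recurrent ordinary regions. MIR122 encodes the most abundant microRNA of hepatocytes, which is known to act on cholesterol and fatty acid metabolism. The region at chr1:162324412-162331778, with its midpoint 1681 bp from MIR122, was listed in 18 libraries (4 high fat 200, 5 low fat 200, 4 high fat 600 and 5 low fat 600). It was 7367 bp long and covered MIR122, so it was among the regions that overlapped a gene with part of their span. In the high fat 200 libraries its strength was 8.47, 4.49, 4.34 and 8.43 in replicates 1, 3, 4 and 7. In the low fat 200 libraries it was 7.82, 4.36, 4.01, 5.47 and 6.38 in replicates 1, 4, 5, 6 and 7. The fat groups overlapped, and replicates 1 and 7 were highest in each group.

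In the 600 libraries the fat groups overlapped too. The MIR122 region had strengths of 8.28, 4.59, 4.74 and 7.82 in high fat 600 replicates 1, 3, 5 and 7, and 7.03, 3.54, 4.05, 5.53 and 7.59 in low fat 600 replicates 1, 3, 4, 6 and 7. Its peaks were wide, with a median of 2258 bp. Other regions at 5465 and 7180 bp from MIR122 were listed in 8 and 3 libraries.

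Further regions had a microRNA as the nearest gene, and these, chosen after their values were seen, are described without a test. One lay 10014 bp from MIRLET7A-2 (16 libraries), one 2360 bp from MIR17 (15), one 27874 bp from MIR30D (11) and one 1541 bp from MIR148A (5). MIR17 belongs to a cluster known for its part in cell growth, and MIR148A is abundant in liver. The remaining ones, at MIR9-2, MIRLET7I, MIR9828-1, MIR9828-2 and MIR9804, were in 3 or 4 libraries.

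Genes of liver metabolism and its regulators were taken from lists, counting a gene when one of the 1209 regions lay within 100000 bp and had it as the nearest protein-coding gene. Of all 19467 protein-coding genes considered, 799 (4.10%) had one. Hepatocyte transcription factors had 4 of 15 (FOXA1, ONECUT1, PROX1 and NR5A2). The immediate early and stress list had 3 of 15 (FOS, JUND and MYC). The sterol and bile acid list had 2 of 12, the glucose and insulin list 2 of 15, the nuclear receptor list 2 of 15 and the hepatocyte secretory list 2 of 16. Lipogenesis, triglyceride synthesis, lipoprotein and clock lists had 1 gene each, and fatty acid oxidation had 0 of 15. No gene of the Kupffer cell, endothelial and stellate, cholangiocyte, lymphocyte and erythroid marker lists had one.

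Gene-end peaks were used to check the labelled tissue. A gene-end peak in any library was found at 11 of 16 hepatocyte secretory genes, 2 of 12 Kupffer cell markers, 0 of 13 endothelial and stellate markers, 0 of 5 cholangiocyte markers, 3 of 11 lymphocyte markers and 1 of 8 erythroid markers. Over all 19467 protein-coding genes it was found at 9031 (46.4%), so the share was 68.8% on the hepatocyte secretory list and at most 27.3% on each list of other cell types. These shares were not tested. The part of other cells in single distal regions was not tested, and fewer cells of a type cannot be told apart from less open chromatin per cell.

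In bile acid synthesis, CYP7A1, its rate-limiting enzyme, had a region at chr4:74379077-74380324, 7072 bp away, listed in 10 libraries. Its strength was 6.40 and 5.94 in high fat 200 replicates 1 and 7, and 5.67, 4.38 and 5.64 in low fat 200 replicates 1, 6 and 7. In the 600 libraries it was 4.77 and 4.67 in high fat replicates 1 and 7, and 3.57, 3.64 and 4.61 in low fat replicates 1, 6 and 7. Under each label the high fat values lay above the low fat values, and so did the numbers of peaks of these libraries. In the 200 set the high fat libraries that listed the region had 17652 and 11943 peaks and the low fat ones 8221, 4208 and 6691, and in the 600 set 4455 and 6453 against 3332, 1325 and 3775. The part of yield in the strengths was not tested, and listing did not separate the groups (2, 3, 2 and 3 of 7 libraries). A second CYP7A1 region, 11628 bp away, was in 3 libraries, and a region near INSIG2, which retains the sterol sensor in the endoplasmic reticulum, was in 4.

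In insulin signalling, the region at chr15:128306766-128310467, with its midpoint 1295 bp from IRS1, the insulin receptor substrate, was listed in 10 libraries (2, 3, 2 and 3 in the order of groups above). Its span of 3702 bp reached into IRS1, so the region was not wholly intergenic. The same libraries listed it as listed the first CYP7A1 region, and its strength was ordered in the same way. It was 6.25 and 7.22 at high fat against 4.97 to 5.67 at low fat in the 200 libraries. In the 600 libraries it was 4.68 and 6.00 against 3.64 to 4.30. Over all peaks in recurrent intergenic distal regions, the same high fat libraries of the 200 set had median strengths of 4.88 and 4.81. The low fat ones had 4.66, 4.33 and 4.59, so these medians were ordered like the single regions. In the 600 set the medians overlapped, with 3.72 and 3.98 against 3.57, 3.64 and 3.75. How many single regions separated the fat groups in strength was not counted. SLC2A2, the hepatocyte glucose transporter, had a region in 4 libraries. FASN, the fatty acid synthase, had a region 2200 bp away at chr12:919643-920768 in 4 libraries. It was listed in 2 high fat 200 libraries and no low fat 200 library, and in 1 library of each fat group under the 600 label. These were too few libraries for the fat test under either label, and all 4 had at least 1000 peaks. ABHD5, a coactivator of triglyceride lipase, and LPIN3, a phosphatidate phosphatase, had regions in 3 and 7 libraries.

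Among hepatocyte transcription factors, PROX1 had a region 69132 bp away in 9 libraries and FOXA1 one 3169 bp away in 8. ONECUT1 and NR5A2, which act in liver development and bile acid synthesis, had regions in 3 and 4 libraries. FOS, an immediate early gene, had regions 19012 and 10339 bp away in 9 and 8 libraries. HLF, a clock-output factor, had one in 9. ALB and TTR, genes of plasma proteins, had regions in 3 libraries each. The regions of the glucocorticoid receptor gene NR3C1 and the coactivator gene PPARGC1A were also in 3.

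Other genes were picked after their values were seen. LEPR, the leptin receptor gene, had a region 5758 bp away in 10 libraries, at chr6:146901247-146902574. GPAT4, an enzyme of the first step of glycerolipid synthesis, had regions 7493 and 14386 bp away in 10 libraries each. MBL1, of the mannose-binding lectins, and CPN2, a plasma carboxypeptidase subunit, also had regions in 10. KLF9, a transcription factor induced by glucocorticoids, had one in 15, and ARID2, a chromatin remodelling subunit, one in 16. CYB5A, the cytochrome b5 that supplies electrons to lipid desaturases, shared with TIMM21 a run of 7 regions over 44024 bp, listed in 3 to 10 libraries.

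**Figure D3:**
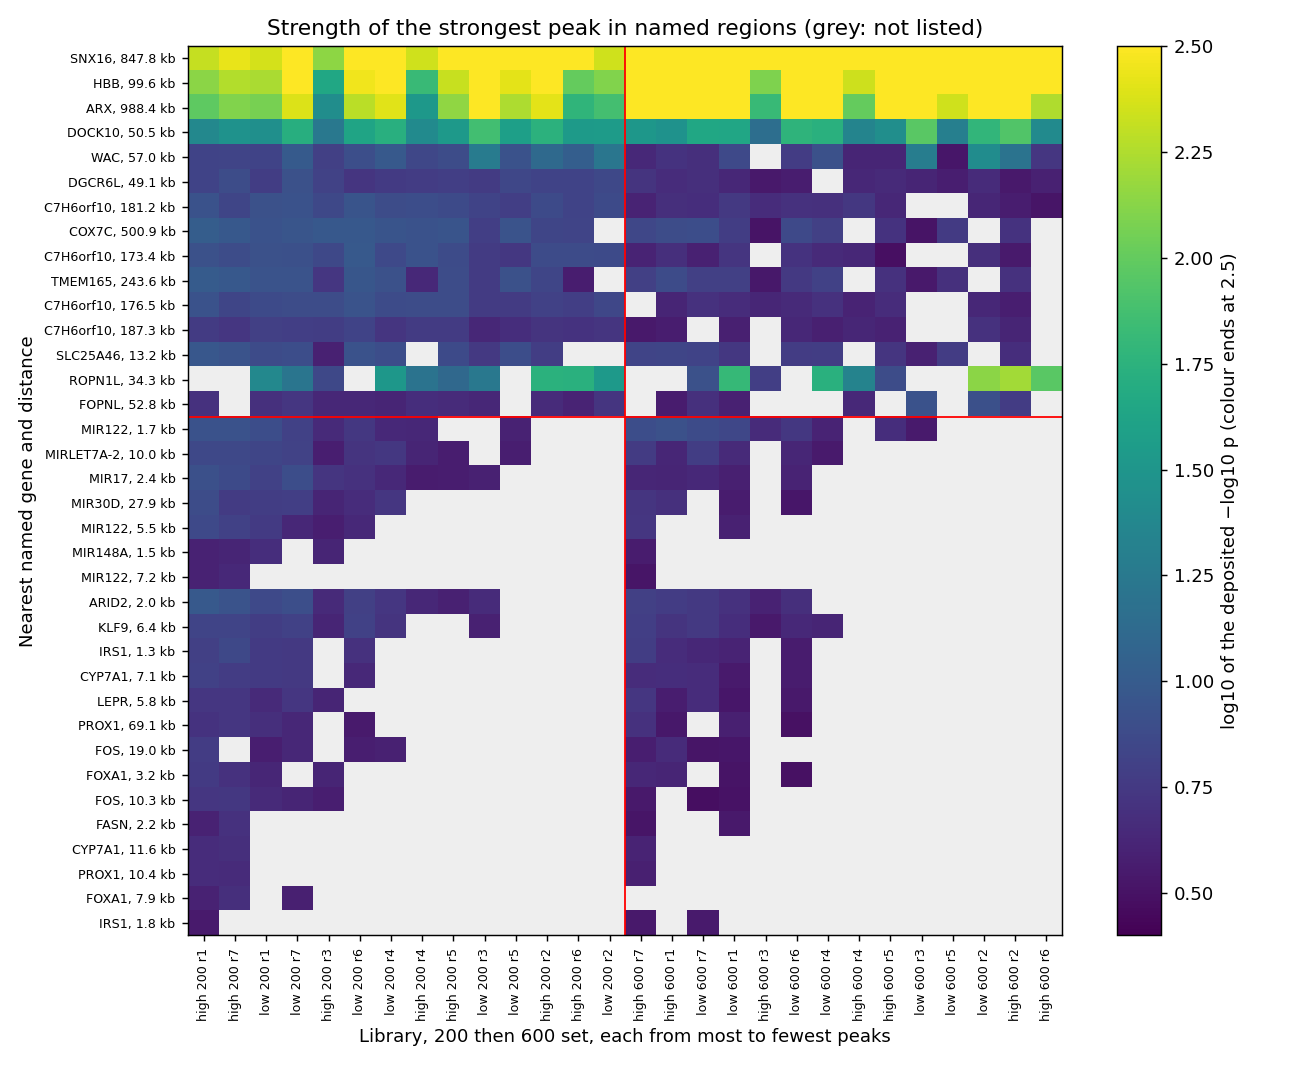
Rows are regions, named by gene and distance in kb, with the 15 most recurrent above the horizontal line; columns are libraries of the 200 set (left of the vertical line) and the 600 set, each from most to fewest peaks. Colour is log10 of the deposited −log10 p of the strongest peak, grey where no peak is listed. The 15 top regions are listed in 19 to 28 libraries, the MIR122 region in 18 and the CYP7A1 region in 10. The MIR122 and CYP7A1 regions are listed mostly in libraries with many peaks.

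Fat content was compared by listing, as the number of high against low fat libraries that listed each region (two-sided Fisher's exact test, adjusted over all recurrent regions of the comparison). None of the 925 regions tested in the 200 libraries passed, and none had an unadjusted p under 0.05. The background over all 7342 regions was 0 calls (0%) after adjustment and 1 (0.0136%) before it. None of the 337 regions tested in the 600 libraries passed either, with none under an unadjusted p of 0.05, against 0 of 3398 (0%). With 7 against 7 libraries the smallest p is 0.000583, and at least 86 regions in the 200 set, or 40 in the 600 set, would have had to reach it to pass the adjustment. A region in 4 libraries of one fat group and 0 of the other has p = 0.0699 by Fisher's exact test. Regions in fewer than 5 libraries therefore could not reach an unadjusted p under 0.05. At least 5 libraries of the set listed 296 of the 925 regions and 105 of the 337. The absence of calls does not show that the fat groups are alike.

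Values nearest to a difference are given without a claim. In the 200 libraries a region near SLC25A46 at chr2:115563664-115563960 was listed in 4 high and 0 low fat libraries (exact p = 0.0699). A region 57775 bp from FOPNL at chr3:6918108-6920733 was listed in 2 high and 6 low fat 200 libraries (exact p = 0.103) and in 1 and 4 of the 600 libraries. In the 600 libraries a region near ROPN1L at chr16:22994-23973 was listed in 1 high and 5 low fat libraries (exact p = 0.103). Regions near JUND (3 and 0 of the 200 libraries) and FOS (1 and 4) had exact p-values of 0.192 and 0.266. Another JUND region was listed in 2 and 1, and the FOS region at 10339 bp in 3 and 2, the opposite order to the first. None of these passed adjustment.

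The share of a library's recurrent peaks that lay in the 1209 regions was compared with permutation tests. In the 200 libraries it was 24.4% ± 21.6 (SD, n = 7) at high fat and 22.9% ± 25.9 (SD, n = 7) at low fat (two-sided exact permutation p = 0.873, adjusted over 4 tests 0.873). In the 600 libraries it was 32.3% ± 29.2 and 22.1% ± 25.6 (exact permutation p = 0.459, adjusted 0.873). The spread within groups exceeded the differences between them. Between labels it was 27.2% ± 26.9 for 600 and 23.6% ± 22.9 for 200 (n = 14 each, permutation p = 0.734, adjusted 0.873). The change from 200 to 600 by title number, an assumed pairing, was 8.61 percentage points greater at high fat, with an adjusted p of 0.191 (exact permutation p = 0.0478).

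The high shares came from libraries with few peaks. Among libraries under 1000 peaks the share ran from 6.67% to 80.8% (median 22.5), and among the others from 7.18% to 13.3% (median 12.3). In libraries of at least 1000 peaks the 600 against 200 difference was −0.669 percentage points, and the difference of the fat effect was −0.282. The sign of both turned.

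Between labels, listing differed in 14 of the 1209 regions (1.16%), all listed by fewer 600 than 200 libraries (two-sided Fisher's exact test, adjusted p under 0.05). Over all 8592 recurrent regions 42 (0.489%) passed, 41 of them fewer in 600 (0.477%). Of the other calls, 27 lay among the 90 regions of the stretches left out, 1 of 2258 was an intragenic distal region and 0 of 5035 a gene-end region. At an unadjusted p under 0.05, 55 of the 1209 differed, 54 of them fewer in 600, against 387 (4.5%) of all regions and 384 (4.47%) fewer in 600.

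Most of the 14 regions, though not all, had narrow peaks in libraries of the 200 set. Of the 14, 12 were listed in no 600 library, and 10 had a median width under 300 bp (range 220.5 to 1047.5, median 279.5). The widest were those near SYCE1 (1047.5 bp) and BTNL2 (1033 bp). No peak of any 600 library was under 440 bp wide, and 0 of 22002 was under 300 bp, while 2786 of 62190 (4.48%) of the 200 peaks were. All 14 were listed in at least 3 libraries with under 1000 peaks. When only peaks of at least 500 bp were chained, 6 regions passed, of which 2 (near SYCE1 and BTNL2) were among the 14 and 4 were listed by more 600 libraries. This filter acts on the 2 sets unequally, since the median width was 510 bp for 200 peaks and 1049 bp for 600 peaks. At 3 of those 4 regions (chr14:51705341, chr2:93844203 and chr8:54507610) 14, 13 and 13 libraries of the 200 set listed a peak, with widths of at most 492 bp, so the filter itself set their direction. Among the libraries with at least 1000 peaks (9 of the 200 and 6 of the 600 set) 0 regions passed. The smallest p that Fisher's exact test allows there is 0.0002, and at least 35 regions would have had to reach it to pass. In the table without the 4 stretches left out, 11 passed.

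A set of 3 of the 14 regions was listed in all 14 libraries of the 200 set and none of the 600 set. One lay 2699 bp from PMP22, a myelin protein gene (chr12:58676929-58677220, median width 261.5 bp). One lay 189848 bp from JMJD4 (chr2:50614826-50615072, 228 bp) and one 40900 bp from the zinc finger gene ZNF484 (chr3:41852149-41853429, 283 bp). A second region, 42312 bp from ZNF484, was listed in 14 and 2 libraries, and the region at chr7:24600388-24606490, 186549 bp from BTNL2, in 14 and 3. A region 2457 bp from GFRAL, the receptor gene of a stress hormone, was listed in 13 libraries of the 200 set, and one 183632 bp from SLC27A6, a fatty acid transporter gene, in 10, both in none of the 600 set. The rest had JMJD4, ZNF331 (2 regions), CEACAM18, EFNB2, SYCE1 or SLC25A46 as the nearest gene with a symbol, from 9109 bp (SYCE1) to 583887 bp (EFNB2) away, and were listed in 10 to 13 libraries of the 200 set and none of the 600 set. By contrast, the region 500875 bp from COX7C at chr2:93844203-93844919 was listed in 13 and 11 libraries, with median widths of 376 bp in the 200 and 704 bp in the 600 set, and the chromosome 14 region 49105 bp from DGCR6L had 364 and 1319 bp. Of the 1209 regions, 291 (24.1%) were in no 600 library, and 6 were in no 200 library. The share in no 600 library was 25.2% for intragenic distal and 19.1% for gene-end regions. More regions had more 200 than 600 libraries (965) than the reverse (110).

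**Figure D4:**
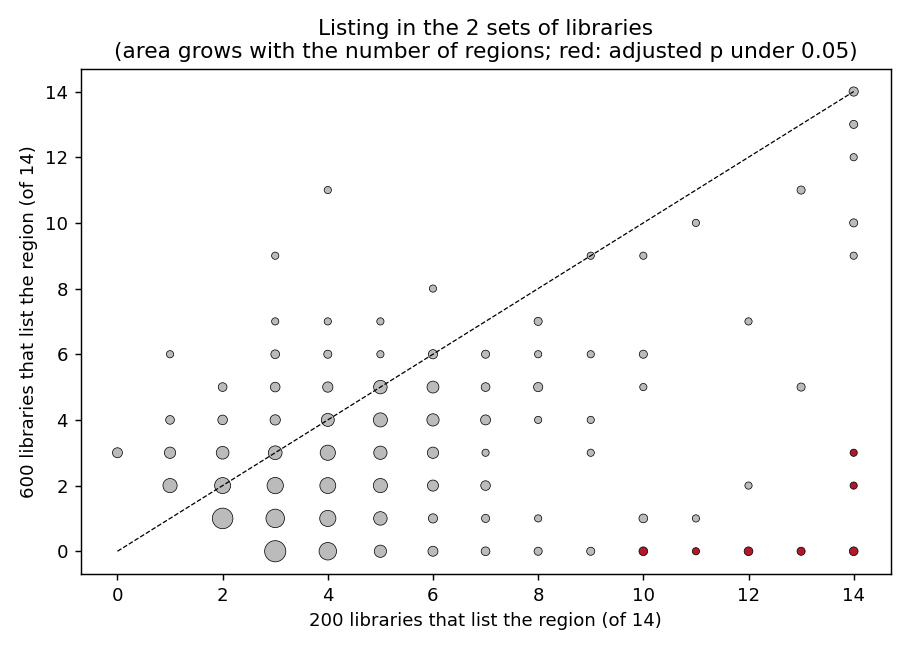
Each circle is a combination of the number of 200 libraries (horizontal) and 600 libraries (vertical) that listed a region, its area growing with the number of regions. The dashed line marks equal listing; red circles hold regions with an adjusted p under 0.05, which all lie at 10 or more 200 libraries and 3 or fewer 600 libraries.

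Peaks of the 1209 regions were compared within each library with those of the other classes, over libraries with at least 5 peaks in both (exact sign-flip permutation test, adjusted over 8 tests). In the 200 set their median width was 442 bp ± 36.7, against 549 bp ± 87.2 for gene-end peaks (SD, n = 13). The difference of −107 bp ± 68.6 held in 13 of 13 libraries (adjusted exact permutation p = 0.00195). It was −72.0 bp with regions of at least 2 libraries and −98.6 bp in libraries with at least 1000 peaks, with adjusted exact permutation p-values of 0.109 and 0.0938. In the 600 set the difference was −21.4 bp ± 196 (n = 11, adjusted exact permutation p = 0.740).

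Against intragenic distal peaks, the width difference did not pass the test under either label. In the 200 set the width differed by −16.7 bp ± 78.6 (SD, n = 14), lower in 12 of 14 libraries (adjusted exact permutation p = 0.572). Without low fat 200 replicate 2 it was −34.6 bp with an adjusted exact permutation p of 0.00195. That library had a median of 572 bp, the highest of its group. In the 600 set the difference was 147 bp ± 255 (n = 13, adjusted exact permutation p = 0.120), and −53.2 bp in libraries with at least 1000 peaks.

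The strength of the 1209 regions' peaks did not pass the test against either class. Against intragenic distal peaks it was higher by 0.28 ± 0.45 in the 200 set (n = 14, adjusted exact permutation p = 0.0964) and by 0.45 ± 0.75 in the 600 set (n = 13, adjusted exact permutation p = 0.0938). Without low fat 200 replicate 2 these were 0.36 and 0.46, with adjusted exact permutation p-values of 0.0104 and 0.0391. The sign turned with stronger peaks only in the 200 set (−0.0511) and in libraries with at least 1000 peaks in the 600 set (−0.0531). Against gene-end peaks the differences were 0.27 ± 0.59 (n = 13) and 0.46 ± 0.95 (n = 11), both with an adjusted exact permutation p of 0.185. In libraries with at least 1000 peaks the differences from gene-end peaks were −0.00376 and −0.221.

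**Figure D5:**
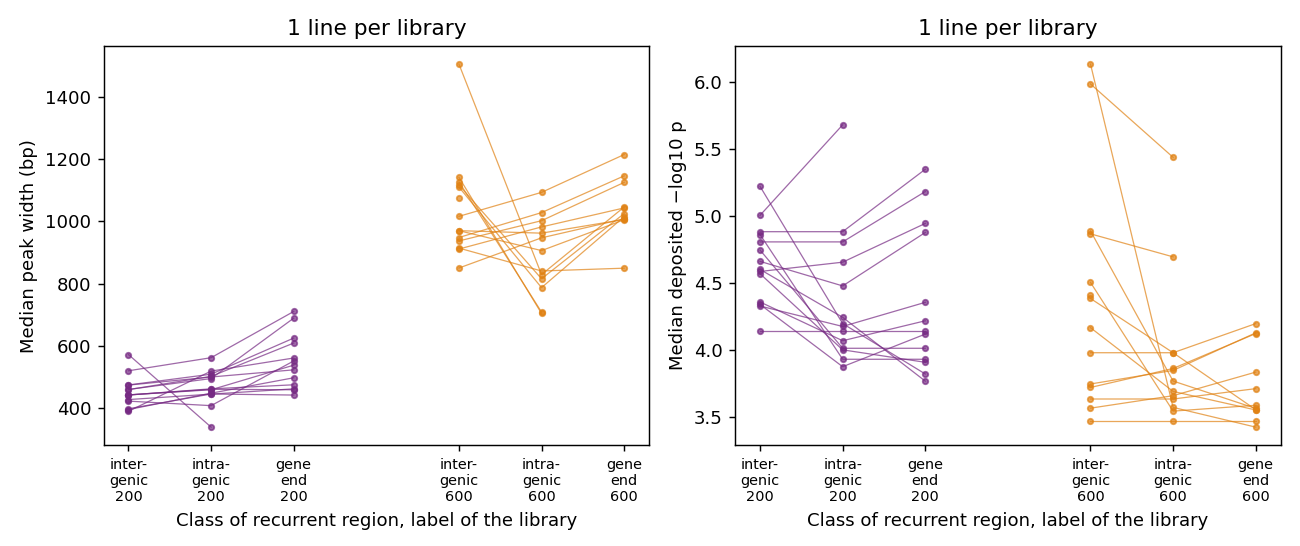
Each line is a library, with the median width in bp (left) and the median deposited −log10 p (right) of its peaks in intergenic distal, intragenic distal and gene-end regions, for the 200 set (purple) and the 600 set (orange); a class with fewer than 5 peaks has no point. In the 200 set the intergenic widths lie below the gene-end widths in 13 of 13 libraries, while the 600 lines cross.

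Summits, taken from each library's strongest peak in a region, had a similar spread in the classes. A region's peaks were chained by overlap, so their summits lie near each other in part by rule. Among regions in at least 5 libraries, the SD of summit positions had a median of 80.6 bp in 608 intergenic distal regions, 86.0 bp in 1161 intragenic distal regions and 86.7 bp in 3566 gene-end regions. The median width of a region's peaks was 566.5, 594 and 739 bp in these classes, and the median strength 4.32, 4.33 and 4.45. In a further comparison, added after the values were seen, libraries of the same title number were paired. Of the members listed in a 200 library, 34.5% ± 15.7 (SD, n = 14) were also listed in the 600 library, against 31.5% ± 18.6 of the intragenic distal regions (exact sign-flip permutation p = 0.127, adjusted over 4 such tests 0.507), and none of the 4 tests passed.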

How the data were processed

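ATAC-seq was made from liver of 28 libraries in 4 groups of 7. Tools listed without version or role in the submitters' processing notes are Genrich, Picard, SAMtools, BWA and FastQC, and the build is Sscrofa11.1. The authors deposited 1 table of 84192 peaks on 19 chromosomes, called per library. Per the file headers it gives a score, a signal value (coverage area of the peak, never under 400), a p-value column and positions with summits. The values of that column reach 7880.9, so it was read as a deposited −log10 p. Peak names have gaps, so called peaks were removed by a rule not given in the sources used here, and depth is unknown.

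Peaks were chained with pandas 2.3.3 and numpy 2.4.6 at an overlap of 1 bp, and located against 28073 RefSeq genes of Sscrofa11.1. Listing was tested with Fisher's exact test over all regions in at least 3 libraries of a comparison (scipy 1.17.1) with Benjamini-Hochberg adjustment, and library values by permutation of means (100000 resamples, or all divisions where a group was under 10). The code was tested on simulated data. Regions and lists were chosen with earlier results of these data known. Named regions were the most recurrent, the strongest, the farthest, those next to the distance limit, those near listed genes (218 genes in 16 lists, 4 unmatched), those in the stretches with most regions and the top regions of each comparison. Of the regions tied in the fat comparisons, and of those listed by more 600 libraries, only some are named. MIR and other genes said above to be chosen after their values were seen are exceptions. No sequence of the regions is shown, as no genome was used here. Alternatives changed the overlap, recurrence, distance, gene set, location, strength, chromosomes, libraries and replicate block, and dropped each library. One region next to the distance limit is not reported here.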

Additional observations from a re-analysis of the deposited data

Results flagged for a closer look

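Dixon's test on 16 sets of 7 libraries flagged 4 values, and chance flags about 1 in 20 groups. The share of recurrent peaks in the intergenic distal regions stood apart in high fat 200 replicate 6 (69.0%), low fat 200 replicate 2 (80.8%) and low fat 600 replicate 2 (79.2%), each far above the rest of its group. These libraries listed under 1000 peaks. The median strength of peaks in the regions stood apart in high fat 600 replicate 2, at 5.98.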

How the results depend on the processing

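The number of regions was 1199 with 50% overlap, 1965 from at least 2 libraries, 608 from at least 5, 922 beyond 5000 bp, 1587 with protein-coding genes only, 1215 by summit, 642 with stronger peaks, 1182 on autosomes, 1188 in libraries with at least 1000 peaks, and 938 to 1210 without single libraries. Of 144 results under other settings 127, and of 420 without single libraries 409, were scored as the same. For tests this meant the same direction and side of the threshold, and for counts of regions an equal or similar count. The tally includes the fat counts, which had no call under any setting. The 14 regions that differed by label became 0 under the replicate block by title number, where the sign test's smallest p of 0.000122 needs 21 regions. Their count was 0 in libraries with at least 1000 peaks, where Fisher's exact test needs 35 regions at its smallest p. It was 6 with peaks of at least 500 bp. The fat counts were 0 under the block too. Numbers pair the libraries only in part: deviations correlated over 0.1 in 9 of 14 title-number pairs and, between fat groups, in 2 of 7 (200) and 6 of 7 (600). Without single libraries the label count ran from 14 to 18.

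In libraries with at least 1000 peaks the strength difference from gene-end peaks was −0.00376 (200) and −0.221 (600), that from intragenic peaks −0.0531 (600), the width difference from intragenic peaks −53.2 bp (600) and from gene-end peaks −98.6 bp (200). The share differences were −0.669 (label) and −0.282 (fat effect). With stronger peaks only, the differences were −0.0511 in strength from intragenic peaks (200), 28.5 bp in width from intragenic peaks (200) and 19.1 bp from gene-end peaks (600). With at least 2 libraries, strength against intragenic peaks (200) was 0.314 and width against gene-end peaks −72.0 bp. With protein-coding genes only, strength against intragenic peaks was 0.327 (200) and 0.466 (600). Without single libraries it ranged from 0.223 to 0.357 (200) and from 0.230 to 0.513 (600), the width against intragenic peaks (200) from −34.6 to −6.08 bp, the label share from −0.519 to 8.00 and the fat share (200) from −5.82 to 11.2. The causes were not tested. Depth is unknown, so unlisted does not mean closed.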
